A study of Mus musculus with 15 samples.

Results

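The postnatal course of 9 imprinted genes that act in prenatal growth was followed in ear RNA of wild type and *Socs3* cKO mice: *Igf2*, *H19*, *Dlk1*, *Mest*, *Plagl1*, *Grb10*, *Cdkn1c*, *Peg3* and *Ndn*. They were chosen by name, as an exact match to the gene symbol, and all 9 of 9 were found among the 21110 genes with deposited values. The samples were 15 C57BL/6 mice, 1 library each: 4 wild type mice and 4 *Socs3* cKO mice were 2 weeks old, and 3 wild type mice and 4 *Socs3* cKO mice were 10 weeks old. The *Socs3* cKO mice carry a keratin 5-driven Cre that deletes *Socs3*, an inhibitor of cytokine signalling, in keratinocytes, and wild type mice carry no deletion. The labels name keratinocytes as the source and the ear as the tissue, and the study's methods describe RNA from ear samples, which by the markers given below held other cells too. The level of each gene is given as FPKM (reads relative to transcript length and to the mapped reads of the library), so that levels of different genes can be compared per length.

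An imprinted gene is read from only the copy inherited from the mother or only the copy inherited from the father, according to DNA methylation laid down in the germ line. Many such genes act on the growth of the embryo and placenta. Paternally expressed genes often promote growth and maternally expressed genes often restrain it. Several are abundant in connective tissue before birth and are turned down in the weeks after birth, as growth slows. The reads counted here came from both copies together, so these values give the total level and not which copy was read.

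The libraries held an estimated 11200000 to 16200000 mapped reads, derived from the step that 1 read makes in small FPKM values. The number of genes listed at 0 was 4044 to 4423 in the 2 week and *Socs3* cKO libraries and 1414, 2087 and 3176 in the 3 wild type libraries at 10 weeks, which therefore stood apart. The library numbers in the labels ran in a separate range for each group, so the batch and the group cannot be told apart. *Socs3* itself had an FPKM of 9.71, 10.2, 10.3 and 10.3 in wild type mice and 1.25, 9.32, 12.6 and 3.51 in *Socs3* cKO at 2 weeks. At 10 weeks it had 2.76, 4.81 and 2.02 in wild type mice and 36.5, 29.8, 47.7 and 32.4 in *Socs3* cKO, which goes against the direction of a deletion in RNA of every cell. In tissue that also holds undeleted cells this level does not check the labels, and every genotype direction given here rests on the mice labelled *Socs3* cKO. The 8 keratinocyte markers (such as *Krt5* and *Krt14*) had a summed FPKM of 4824 to 11815 per mouse. Markers of fibroblasts and of skeletal muscle were present in every mouse as well, so the libraries are not of keratinocytes alone.

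The genes lie on 5 chromosomes of mm9. Of those on chromosome 7, *Igf2* lies at chr7:149836673-149852721 and *H19* at chr7:149761434-149764048, both on the minus strand with 72624 bases between them. *Cdkn1c* lies at chr7:150644255-150646955 (minus strand), *Peg3* at chr7:6656603-6683132 (minus strand) and *Ndn* at chr7:69493163-69494814 (plus strand, annotated with 1 transcript). *Dlk1* lies at chr12:110691033-110701546 (plus strand), *Mest* at chr6:30673547-30698457 (plus strand), *Plagl1* at chr10:12810497-12851500 (plus strand) and *Grb10* at chr11:11830511-11938686 (minus strand). The annotation types *H19* as a processed transcript with no protein and the other 8 as protein-coding. An exon of *H19* holds the microRNA precursor *Mir675*, which the files list as a gene of its own of 84 bases. Its mature strands, as RefSeq (GRCm38.p6) gives them, match mm9 at chr7:149763017-149763038 for the 5p strand and chr7:149762983-149763004 for the 3p strand, both on the minus strand, and are shown because the *H19* value depends on how the reads of this stretch were assigned. The capitals mark the seed, bases 2 to 8, which directs a microRNA to its targets.
mmu-miR-675-5p: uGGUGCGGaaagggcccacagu
mmu-miR-675-3p: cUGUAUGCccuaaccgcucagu

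Promoters were looked up in the RefSeq table for mouse (GRCm38.p6), which held 13 for 7 of the 9 genes and none for *H19* and *Cdkn1c*. The 250 bases before the start were taken, and all 13 matched mm9 at a single place. The letters TGCCGC, the site that the zinc finger protein ZFP57 binds at methylated imprinting control regions, were searched on both strands. They occurred in 3 of these 13 promoters, compared with 2850 of all 32851 promoters in the table (8.7%). The 3 were that of *Plagl1* and a pair of *Mest* promoters whose windows start 3 bases apart, so they count the same letters. A total of 3 promoters of genes that fell steeply with age in wild type mice are shown: *Mest* (chr6:30687800-30688049, plus strand), *Dlk1* (chr12:110690783-110691032, plus strand) and the *Igf2* promoter nearest the coding exons (chr7:149843402-149843651, minus strand). Capitals mark the searched letters or their reverse complement, GCGGCA, which *Mest* held at 2 places and the other promoters shown did not hold.
*Mest*: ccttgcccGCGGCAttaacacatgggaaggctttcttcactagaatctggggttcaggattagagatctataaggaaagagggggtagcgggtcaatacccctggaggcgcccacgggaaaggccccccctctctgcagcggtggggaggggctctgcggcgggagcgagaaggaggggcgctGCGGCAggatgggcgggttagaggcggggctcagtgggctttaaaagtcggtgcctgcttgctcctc
*Dlk1*: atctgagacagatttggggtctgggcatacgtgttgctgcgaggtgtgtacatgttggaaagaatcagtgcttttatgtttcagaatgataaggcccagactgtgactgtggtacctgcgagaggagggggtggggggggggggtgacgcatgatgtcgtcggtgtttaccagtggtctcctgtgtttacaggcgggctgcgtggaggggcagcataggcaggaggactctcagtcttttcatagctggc
*Igf2*: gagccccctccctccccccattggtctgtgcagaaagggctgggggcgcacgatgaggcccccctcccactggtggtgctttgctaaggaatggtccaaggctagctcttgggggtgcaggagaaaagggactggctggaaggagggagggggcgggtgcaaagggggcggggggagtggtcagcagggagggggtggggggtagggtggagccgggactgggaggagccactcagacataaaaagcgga
The pair CG, the target of DNA methylation, occurred 14 times in the *Mest* window, 8 times in that of *Dlk1* and 6 times in that of *Igf2*, compared with a median of 6 over all promoters of the table. A match in letters is a description of the sequence and does not show a bound site.

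In the ear of wild type mice at 2 weeks the levels of these genes differed widely from each other. *H19* was the highest at 405 ± 25.4 FPKM (mean ± SD, n = 4), followed by *Igf2* at 159.8 ± 12.1. *Dlk1* (65.4 ± 4.83) and *Cdkn1c* (61.7 ± 5.28) came next, with ranges that overlapped. *Ndn* had 36.6 ± 3.0, and *Grb10* (31.5 ± 1.15), *Plagl1* (29.3 ± 2.99) and *Mest* (28.1 ± 2.75) were neighbours whose ranges overlapped. *Peg3* was the lowest at 8.71 ± 2.02. The 9 values summed to 802 to 886 FPKM per mouse, of which *H19* made up 47.5% to 50.5%.

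At 10 weeks the order in wild type mice was another. *Cdkn1c* was the highest at 40.6 ± 11.2 FPKM (n = 3), with a range that overlapped that of *Ndn* (25.3 ± 3.23), and *Igf2* came next at 19.9 ± 3.35. *Mest* (6.97 ± 0.77), *Plagl1* (6.81 ± 1.12), *H19* (6.18 ± 2.02) and *Dlk1* (3.31 ± 1.08) followed *Grb10* (10.6 ± 0.91), each of these 4 overlapping its neighbour among them, and *Peg3* was the lowest at 0.749 ± 0.80. The sum of the 9 genes was 98.9 to 138 FPKM per mouse, and the share of *H19* was 4.07% to 5.82%. In *Socs3* cKO the sum was 161 to 360 FPKM at 2 weeks, and every neighbouring pair of genes in the order overlapped in range. It was 105 to 188 FPKM at 10 weeks, when *Igf2* was the highest at 37.6 ± 17.3 and *H19* made up 2.6% to 17.6%.

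**Figure D1:**
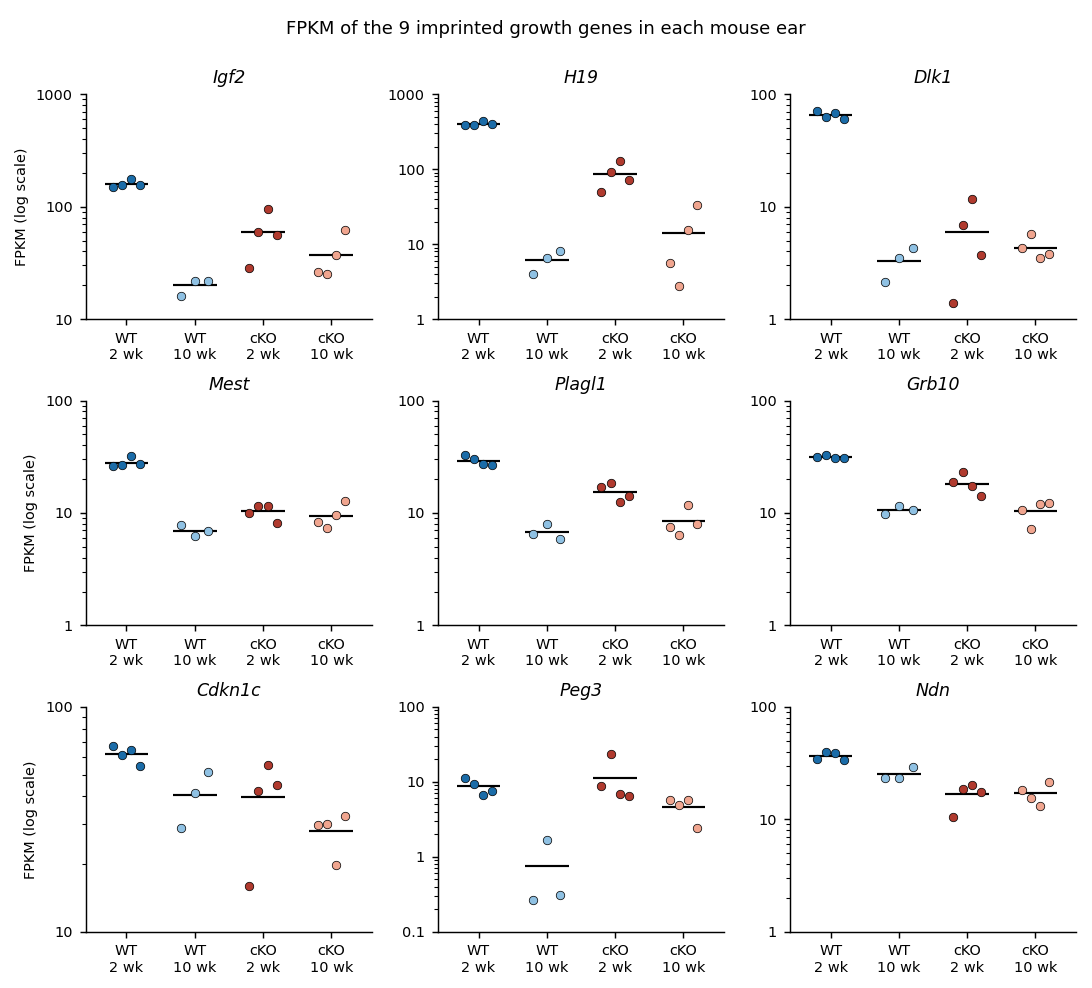
FPKM of each gene (log axis) in each mouse ear, in the order wild type at 2 and 10 weeks and *Socs3* cKO at 2 and 10 weeks. Points are mice and lines are arithmetic means. The 4 wild type mice at 2 weeks lie above all wild type mice at 10 weeks for all 9 genes, and above all *Socs3* cKO mice at 2 weeks for 7 of them.

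Altogether 5 comparisons were made with limma on log2(FPKM + 0.1) over every gene that reached 1 FPKM in 3 or more of the mice compared, and all 9 genes passed that filter in each. A gene was called where the Benjamini-Hochberg adjusted p was below 0.01 and the log2(FC) was at least 1 in size. The comparisons were the change from 2 to 10 weeks in wild type mice and in *Socs3* cKO, the difference between those changes, and *Socs3* cKO against wild type mice at each age. They share mice, so a high value in wild type mice at 2 weeks enters 3 of them. The labels do not say whether mice shared a litter or cage. In RNA of a mixed tissue, fewer cells of a type and less RNA per cell cannot be told apart.

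In wild type mice, 7 of the 9 genes fell from 2 to 10 weeks and none rose. Over all 13937 genes tested, 19.4% were called lower and 6.18% higher. The log2(FC) of the 9 genes ran from -6.06 to -0.53 with a median of -2.10, beside a median of -0.44 over all genes tested. All 9 had every mouse at 10 weeks below every mouse at 2 weeks, as had 49.5% of all genes tested. Of all genes called, 24.2% were higher at 10 weeks, a share that became 47.1% under median-of-ratios scaling and 52.2% under quantile normalization. Those scalings moved the median over all genes from -0.44 to -0.05 and 0.07, and 7 of the 9 genes were called lower under both.

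The growth factor *Igf2*, a secreted ligand of the type 1 IGF receptor that is made from the paternal copy, had 150, 155, 178 and 156 FPKM at 2 weeks and 16.1, 21.98 and 21.7 FPKM at 10 weeks in wild type mice. The log2(FC) was -3.01 (SE 0.35, adjusted p = 1.89e-05), which is 8.05-fold lower. It was -1.79 (adjusted p = 0.00111) when the trend of each library with gene length and GC content was removed. *H19*, a noncoding RNA made from the maternal copy that shares enhancers with *Igf2*, fell further, from 384, 389, 440.3 and 405 FPKM to 4.03, 6.49 and 8.03 FPKM. Its log2(FC) was -6.06 (SE 0.61, adjusted p = 5.19e-06), which is 66.9-fold lower on this scale. No mouse at 10 weeks reached the level of any mouse at 2 weeks for either gene.

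The entry for *Mir675* inside *H19* had 7424 to 11070.0 FPKM in wild type mice at 2 weeks, was listed at 0 in 2 of the 3 wild type mice at 10 weeks and had 65.5 FPKM in the other. In *Socs3* cKO it had 374 to 1689 FPKM at 2 weeks, and at 10 weeks it was listed at 0 in 1 mouse with 68.8, 295 and 797 FPKM in the other 3. The mice with the highest and the lowest *H19* in *Socs3* cKO at 2 weeks were also those with the highest and the lowest value of this entry. An FPKM over 84 bases, little longer than a read of 50 bases, depends on how the effective length was set, and reads assigned to this entry are missing from *H19* if each read was given to a single gene.

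*Dlk1*, a membrane protein related to the Notch ligands that holds back adipocyte differentiation, had 70.9, 63.1, 67.8 and 60.0 FPKM at 2 weeks and 2.13, 3.53 and 4.26 FPKM at 10 weeks in wild type mice. The log2(FC) was -4.32 (SE 0.49, adjusted p = 1.6e-05), a 19.9-fold fall. *Mest*, a member of the alpha/beta hydrolase fold family, had 26.2, 26.7, 32.2 and 27.2 FPKM at 2 weeks and 7.78, 6.26 and 6.85 FPKM at 10 weeks, a log2(FC) of -2.0 (SE 0.20, adjusted p = 4.13e-06). The 3' end of *Mest* shares 904 exon bases with *Copg2* on the opposite strand, and the kit does not mark the strand, so reads there could belong to either gene. *Copg2* had 23.5 to 37.8 FPKM in wild type mice at 2 weeks and 47.7, 10.1 and 2.32 FPKM at 10 weeks, an order of mice that is not that of *Mest*.

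*Plagl1*, a zinc finger transcription factor, had 32.97, 30.5, 27.1 and 26.6 FPKM at 2 weeks and 6.52, 8.05 and 5.85 FPKM at 10 weeks in wild type mice, with a log2(FC) of -2.10 (SE 0.21, adjusted p = 5.23e-06), or -1.30 with the length and GC trend removed. *Grb10*, an adaptor protein that binds the insulin and IGF1 receptors and dampens their signal, had 31.6, 33.03, 30.6 and 30.6 FPKM at 2 weeks and 9.70, 11.5 and 10.6 FPKM at 10 weeks. This was a log2(FC) of -1.56 (SE 0.20, adjusted p = 3.62e-05), and -0.66 (adjusted p = 0.0372) when the length and GC trend was removed, which ended the call. *Cdkn1c*, which encodes the cyclin-dependent kinase inhibitor p57, had 66.7, 61.2, 64.5 and 54.6 FPKM at 2 weeks and 28.9, 41.4 and 51.3 FPKM at 10 weeks. All 3 older mice lay below the 4 younger ones, yet the log2(FC) of -0.64 (SE 0.34, adjusted p = 0.128) did not pass the test.

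*Peg3*, a paternally expressed zinc finger protein, had 11.3, 9.29, 6.77 and 7.48 FPKM at 2 weeks and 0.268, 1.67 and 0.306 FPKM at 10 weeks in wild type mice. It had a log2(FC) of -3.75 (SE 0.54, adjusted p = 0.000104), and 1 of the 3 older mice stood about midway on the log scale between the others and the younger mice. *Ndn*, which encodes necdin, a MAGE family protein that restrains the cell cycle, had 34.3, 39.4, 38.9 and 33.6 FPKM at 2 weeks and 23.5, 23.4 and 29.1 FPKM at 10 weeks. Its log2(FC) was -0.53 (SE 0.22, adjusted p = 0.0565) and did not pass the test.

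In *Socs3* cKO, *H19* alone of the 9 genes was called lower at 10 weeks, and none was called higher. Over all genes tested, 1.53% were called lower and 2.01% higher. The log2(FC) of the 9 genes ran from -3.08 to 0.06 with a median of -0.65, beside a median of 0.11 over all genes. Among the 9, the 4 genes *H19*, *Peg3*, *Plagl1* and *Grb10* had every mouse at 10 weeks below every mouse at 2 weeks, as had 6.79% of all genes.

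*H19* in *Socs3* cKO had 50.0, 90.6, 129.8 and 72.6 FPKM at 2 weeks and 5.61, 2.74, 15.4 and 33.2 FPKM at 10 weeks. The groups did not overlap. The log2(FC) was -3.08 (SE 0.56, adjusted p = 0.00322). The call was lost without *Socs3* cKO replicate 3 at 2 weeks (-2.85, adjusted p = 0.0132), without replicate 1 at 10 weeks (-2.83, adjusted p = 0.0137) and in a fit on these 2 groups alone (-3.08, adjusted p = 0.0436). *Igf2* had 28.6, 59.7, 95.3 and 55.8 FPKM at 2 weeks and 26.1, 25.0, 36.9 and 62.3 FPKM at 10 weeks, groups that overlapped, with a log2(FC) of -0.65 (SE 0.33, adjusted p = 0.216).

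*Plagl1* had 17.0, 18.4, 12.5 and 14.0 FPKM at 2 weeks and 7.43, 6.36, 11.8 and 7.98 FPKM at 10 weeks in *Socs3* cKO. Its log2(FC) of -0.90 (SE 0.19, adjusted p = 0.00945) passed the limit on p and not the limit on size, and it was called at -1.07 (adjusted p = 0.00308) without replicate 3 at 10 weeks. *Grb10* had 18.7, 23.1, 17.3 and 14.1 FPKM at 2 weeks and 10.6, 7.23, 12.0 and 12.2 FPKM at 10 weeks, a log2(FC) of -0.80 (SE 0.18, adjusted p = 0.012). With the length and GC trend removed both were called, *Plagl1* at -1.09 (adjusted p = 0.00102) and *Grb10* at -1.04 (adjusted p = 0.00526). *Peg3* had 8.73, 23.1, 6.87 and 6.40 FPKM at 2 weeks and 5.64, 4.97, 5.68 and 2.40 FPKM at 10 weeks, with a log2(FC) of -1.12 (SE 0.50, adjusted p = 0.17).

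The other 4 genes differed little between the ages in *Socs3* cKO relative to their spread. *Dlk1* had 1.40, 6.86, 11.7 and 3.71 FPKM at 2 weeks and 4.27, 5.76, 3.50 and 3.82 FPKM at 10 weeks, so that the younger mice spread on both sides of the older ones. *Mest* had 10.1, 11.6, 11.6 and 8.11 FPKM at 2 weeks and 8.24, 7.38, 9.57 and 12.8 FPKM at 10 weeks. Their log2(FC) values were -0.10 (SE 0.46, adjusted p = 0.902) and -0.14 (SE 0.18, adjusted p = 0.608). The cell cycle inhibitor *Cdkn1c* had 16.03, 42.3, 55.2 and 45.1 FPKM and then 29.9, 30.2, 19.7 and 32.6 FPKM, a log2(FC) of -0.38 (SE 0.31, adjusted p = 0.426). *Ndn* had 10.4, 18.7, 19.98 and 17.4 FPKM and then 18.2, 15.5, 13.2 and 21.3 FPKM. Its log2(FC) was 0.06 (SE 0.20, adjusted p = 0.866), which turned to -0.02 under median-of-ratios scaling and -0.07 under quantile normalization.

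**Figure D2:**
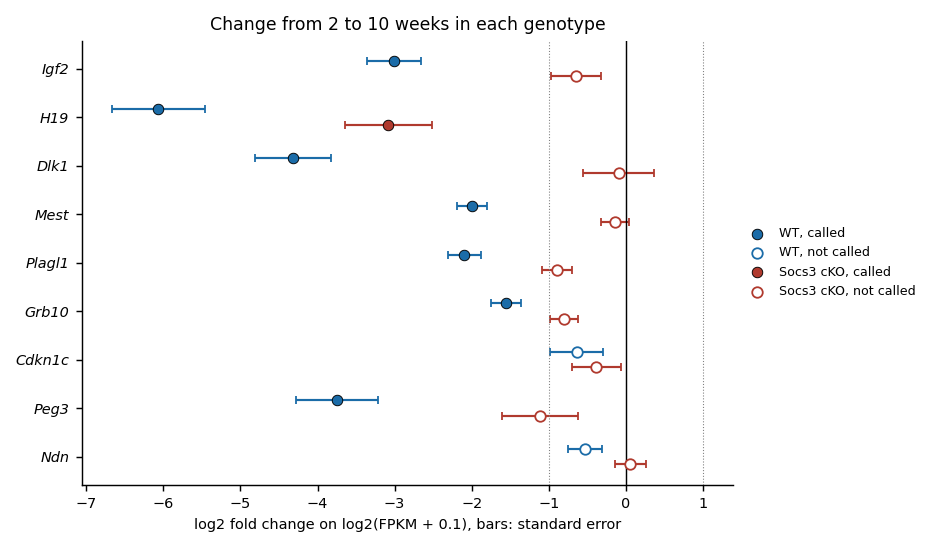
The log2(FC) from 2 to 10 weeks of each gene on log2(FPKM + 0.1), in wild type mice (blue) and *Socs3* cKO (red). Bars are standard errors, filled points are called and open points are not, and dotted lines mark a log2(FC) of 1 in size. There are 7 genes called in wild type mice and *H19* alone in *Socs3* cKO.

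The difference between the age changes was tested as an interaction, and 4 of the 9 genes were called, all with a smaller fall in *Socs3* cKO. Over all genes tested 18.0% were called in that direction and 6.55% in the other. The median difference was 1.85 for the 9 genes and 0.55 over all genes, and of all genes called 73.3% were positive, which became 52.3% under median-of-ratios scaling and 45.4% under quantile normalization. Among the 9, *Dlk1* had the largest difference at 4.22 (SE 0.67, adjusted p = 0.000493). *Igf2* differed by 2.36 (SE 0.48, adjusted p = 0.00204) and *Mest* by 1.85 (SE 0.27, adjusted p = 0.000235).

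*Plagl1* differed by 1.2 (SE 0.29, adjusted p = 0.00487), a call that was lost under both scalings (0.73 and 0.70, adjusted p = 0.0553 and 0.057) and without any of 5 mice, namely wild type replicates 1 and 2 at 2 weeks, wild type replicates 1 and 3 at 10 weeks and *Socs3* cKO replicate 3 at 2 weeks (1.10 to 1.18, adjusted p = 0.0107 to 0.0155). With the length and GC trend removed, *Dlk1* (2.74, adjusted p = 0.000946) and *Mest* (1.46, adjusted p = 0.00108) were called, and *Igf2* (0.69, adjusted p = 0.283) and *Plagl1* (0.21, adjusted p = 0.559) were not. *H19* (2.98, SE 0.83) and *Peg3* (2.63, SE 0.73) had large differences with wide errors and both had an adjusted p of 0.0105. *H19* was called without *Socs3* cKO replicate 2 or 4 at 10 weeks (3.57 and 2.38, adjusted p = 0.00201 and 0.00954). *Peg3* was called without wild type replicate 2 at 10 weeks, *Socs3* cKO replicate 2 at 2 weeks or *Socs3* cKO replicate 4 at 10 weeks (3.36, 3.05 and 2.92, adjusted p = 0.00101, 0.00223 and 0.00633). *Grb10* (0.76, adjusted p = 0.0319), *Ndn* (0.59, adjusted p = 0.118) and *Cdkn1c* (0.26, adjusted p = 0.664, turning to -0.21 with median-of-ratios scaling) did not pass the test.

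At 2 weeks 5 of the 9 genes were called lower in *Socs3* cKO than in wild type mice, and none higher. Over all 13524 genes tested, 7.19% were called lower and 7.24% higher. The median log2(FC) was -1.17 for the 9 genes and -0.21 over all genes. In 7 of the 9 genes every *Socs3* cKO mouse lay below every wild type mouse, as in 33.2% of all genes tested. The values per mouse are those given for each age above.

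Among the 9, *Dlk1* showed the largest difference, with a log2(FC) of -3.81 (SE 0.55, adjusted p = 0.0016), which is 14.0-fold lower. *H19* had a log2(FC) of -2.32 (SE 0.265, adjusted p = 0.000513) and *Igf2* of -1.54 (SE 0.32, adjusted p = 0.00737). *Mest* was lower by a log2(FC) of -1.44 (SE 0.16, adjusted p = 0.000427) and *Ndn* by -1.17 (SE 0.21, adjusted p = 0.00437). *Igf2* was no longer called without any of the 4 wild type mice or without *Socs3* cKO replicate 4 (-1.56 to -1.49, adjusted p = 0.0205 to 0.0254), nor with the length and GC trend removed (-0.32, adjusted p = 0.278), where *H19* had -1.54 and was still called. *Ndn* was no longer called without any of the 4 wild type mice or without *Socs3* cKO replicate 1 or 4 (-1.21 to -0.96), and with median-of-ratios scaling it had -0.97 (adjusted p = 0.00237).

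*Plagl1* (-0.93, SE 0.16, adjusted p = 0.00359) and *Grb10* (-0.80, SE 0.16, adjusted p = 0.00683) passed the limit on p and not that on size, and *Plagl1* was called at -1.01 without *Socs3* cKO replicate 2. *Cdkn1c* had -0.77 (SE 0.35, adjusted p = 0.096), with *Socs3* cKO replicate 1 at 16.03 FPKM far below the other 3 mice of its group. *Peg3* had 0.19 (SE 0.40, adjusted p = 0.706) with overlapping groups, and *Socs3* cKO replicate 2 at 23.1 FPKM set its sign, since the value without that mouse was -0.23. *Socs3* cKO replicate 1 had the lowest *Igf2*, *H19*, *Dlk1*, *Cdkn1c* and *Ndn* of its group. Its library also stood apart as a whole, with the most genes listed at 0 (4423) and the fewest at 1 FPKM or more of all libraries. Without this mouse the median log2(FC) at 2 weeks over all genes tested was -0.1, beside -0.21 with it. The part of this library-wide difference in the low values of these genes was not tested.

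At 10 weeks *Peg3* alone of the 9 genes was called, higher in *Socs3* cKO. Over all 13105 genes tested 12.5% were called higher and 2.43% lower. Of all genes called 83.7% were higher, which became 62.9% under median-of-ratios scaling and 52.7% under quantile normalization. *Peg3* had 5.64, 4.97, 5.68 and 2.40 FPKM in *Socs3* cKO and 0.268, 1.67 and 0.306 FPKM in wild type mice, a log2(FC) of 2.82 (SE 0.55, adjusted p = 0.00437). The groups did not overlap. The call was lost without wild type replicate 1 or 3 or without *Socs3* cKO replicate 1, 2 or 3 (2.42 to 2.76, adjusted p = 0.0112 to 0.0263). *Peg3* passed the filter of this fit through *Socs3* cKO, so its p is not separate support. Its levels in wild type replicates 1 and 3 lay near the constant added before the logarithm, so the size depends on that constant.

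*Igf2* was also higher in all 4 *Socs3* cKO mice than in the 3 wild type mice, with a log2(FC) of 0.82 (SE 0.30, adjusted p = 0.0566) that did not pass the test, and 31.2% of all genes did not overlap in this direction. *Ndn* was lower in all 4 *Socs3* cKO mice, with a log2(FC) of -0.58 (SE 0.20, adjusted p = 0.0421), as 11.1% of all genes were without overlap. The other 6 genes overlapped between the genotypes. *H19* had a log2(FC) of 0.66 with an SE of 0.70, and *Cdkn1c* of -0.51 with an SE of 0.24 (adjusted p = 0.473 and 0.117). *Mest* (0.42), *Dlk1* (0.41, turning to -0.03 with quantile normalization), *Plagl1* (0.27, turning to -0.13 with quantile normalization) and *Grb10* (-0.04) had adjusted p of 0.158 to 0.883.

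**Figure D3:**
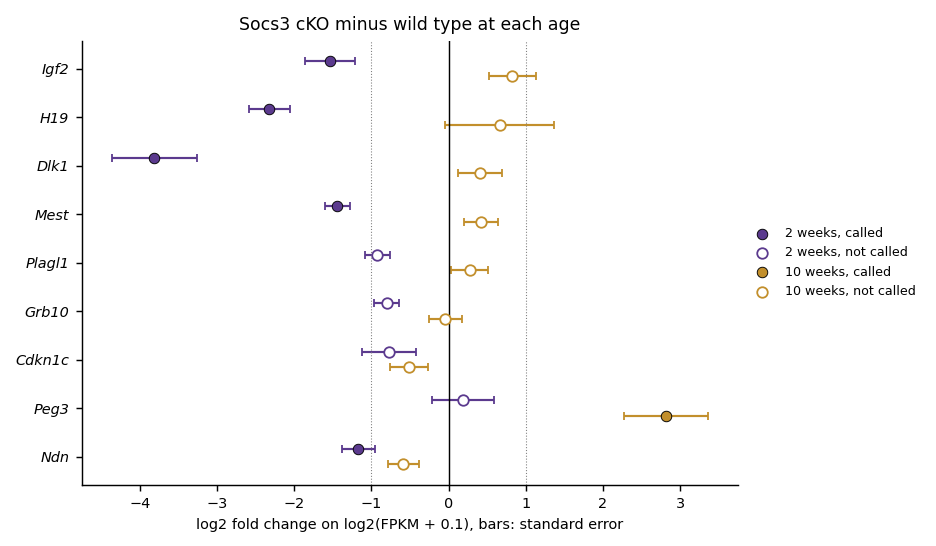
The log2(FC) of *Socs3* cKO minus wild type mice for each gene on log2(FPKM + 0.1), at 2 weeks (purple) and 10 weeks (ochre), with standard errors. Filled points are called and open points are not. At 2 weeks 5 genes lie at or below -1.17 and are called, and *Peg3* at 2.82 is the only called gene at 10 weeks.

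The ratio of 2 genes within a mouse does not change when a library is scaled. *Igf2* and *H19* are read from opposite parental copies with the same enhancers, and their log2 ratio moved from -1.34 ± 0.03 (SD, n = 4) at 2 weeks to 1.71 ± 0.27 (n = 3) at 10 weeks in wild type mice. In *Socs3* cKO it moved from -0.56 ± 0.19 (n = 4) to 1.88 ± 1.01 (n = 4). So *H19* exceeded *Igf2* in all 8 mice at 2 weeks, and *Igf2* exceeded *H19* in all 7 mice at 10 weeks.

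The age differences in this ratio were 3.05 in wild type mice (exact permutation test, 2-sided, p = 0.0571, the smallest that 3 mice against 4 allow) and 2.43 in *Socs3* cKO (exact p = 0.0286, the smallest that 4 against 4 allow). At 2 weeks the ratio was higher in *Socs3* cKO by 0.78 (exact p = 0.0286), without overlap, and at 10 weeks it differed by 0.16 (exact p = 0.857). After Benjamini-Hochberg adjustment over the 8 ratio tests these became 0.0914, 0.0762, 0.0762 and 0.857, and none passed 0.05. With groups of 3 or 4 mice no outcome of the 8 tests could have passed it, so the adjusted p decide nothing here.

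*Igf1*, the IGF ligand that dominates growth after birth and is not imprinted, had 15.7, 16.3, 16.4 and 16.1 FPKM at 2 weeks and 19.7, 19.2 and 17.0 FPKM at 10 weeks in wild type mice. The log2 ratio of *Igf2* to *Igf1* there was 3.30 ± 0.09 (n = 4) at 2 weeks and 0.08 ± 0.33 (n = 3) at 10 weeks, a difference of -3.21 (exact p = 0.0571, adjusted p = 0.0914). In *Socs3* cKO *Igf1* had 37.8, 29.4, 23.2 and 22.2 FPKM at 2 weeks and 29.6, 29.2, 31.5 and 56.4 FPKM at 10 weeks. The ratio in *Socs3* cKO was 0.99 ± 1.02 at 2 weeks and -0.01 ± 0.23 at 10 weeks, a difference of -1.0 (exact p = 0.143). At 2 weeks it was lower in *Socs3* cKO than in wild type mice by a log2 difference of -2.30 (exact p = 0.0286, adjusted p = 0.0762), with no overlap, while at 10 weeks both genotypes had nearly equal FPKM of both ligands.

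**Figure D4:**
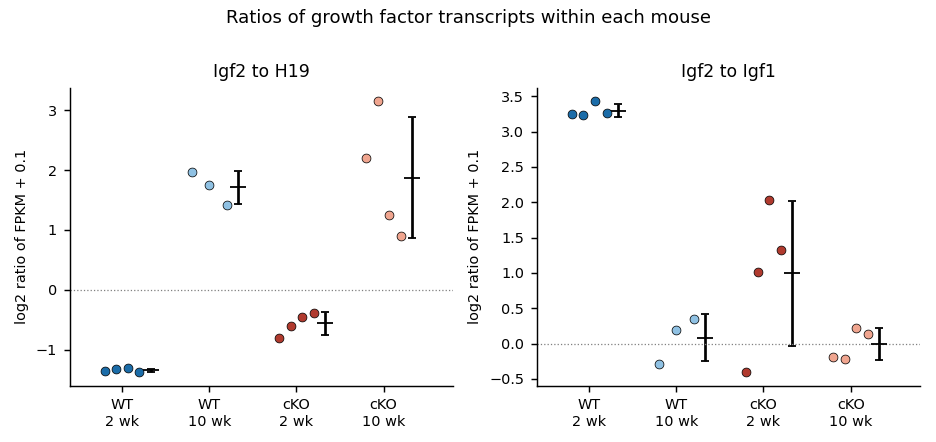
Log2 ratio of *Igf2* to *H19* (left) and of *Igf2* to *Igf1* (right), computed on FPKM + 0.1, in each mouse. Points are mice, and the mark beside each group is the mean with its SD. The ratio of *Igf2* to *H19* is below 0 in every mouse at 2 weeks and above 0 in every mouse at 10 weeks.

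Markers of several cell types of the ear moved with these groups. The summed FPKM of 9 fibroblast markers (such as *Col1a1*, *Col3a1* and *Pdgfra*) was 12307 to 14429 in wild type mice at 2 weeks, 2550.2 to 5261 in wild type mice at 10 weeks, and, for *Socs3* cKO, 3644 to 5788 at 2 weeks and 4486 to 7182 at 10 weeks. Thus the group in which 8 of the 9 imprinted genes had their highest mean also had the highest fibroblast sum, with no overlap. The sum adds raw FPKM, so its most abundant genes weigh most. *Dcn*, another fibroblast gene that is not in this list, went the other way. Its mean was 838 FPKM in wild type mice at 2 weeks and 1620, 2107 and 3294 FPKM in the other groups, in the same order. The 7 hair follicle markers in the files summed to 1528 to 2202 in wild type mice at 2 weeks and to 9.45 to 11.01, 9.08 to 43.9 and 5.43 to 58.3 in the other groups, in the same order.

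The 6 Schwann cell markers summed to 325 to 356, 80.5 to 160.1, 107 to 263 and 67.2 to 163 FPKM in that order of groups. The 6 endothelial markers summed to 61.9 to 72.8, 21.6 to 24.5, 55.7 to 65.5 and 39.8 to 59.8 FPKM. The 8 chondrocyte markers in the files summed to 261 to 406, 108 to 167, 126 to 334 and 214 to 408 FPKM, with 1 of them at 0 in all mice at 2 weeks. Unlike these, the 9 skeletal muscle markers were highest in *Socs3* cKO at 2 weeks (1809 to 3626, beside 712.8 to 1082, 1060.5 to 1819 and 453 to 805 in wild type mice at 2 and 10 weeks and *Socs3* cKO at 10 weeks). Adipocyte markers summed to 241 to 276 FPKM in wild type mice at 2 weeks and 339 to 818 FPKM in the other groups. The 7 leukocyte markers in the files summed to 42.2 to 75.1 FPKM in wild type mice, below the 98.5 to 932 FPKM of *Socs3* cKO. The part of each cell type in the levels of the 9 genes was not tested.

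Beside the 9 genes, 51 of 52 further imprinted genes of a list were in the files. In wild type mice 14 of the 37 tested were called lower at 10 weeks and 3 higher, beside the 19.4% and 6.18% of all genes. Their median log2(FC) was -0.86, and it was -0.19 with quantile normalization, which left 9 called lower and 4 higher. In *Socs3* cKO 4 were called lower and 3 higher with age, beside 1.53% and 2.01% of all genes. The interaction was called for 15 of 37, of which 13 were positive and 2 negative, beside the 18.0% and 6.55% of all genes. It was called for 10 positive and 5 negative with quantile normalization, and for 8 and 5 of the 34 genes tested with the length and GC trend removed.

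Genes of the imprinted cluster around *Dlk1* were among those lower at 10 weeks. *Meg3*, a noncoding RNA of the maternal copy, had 227 to 246 FPKM in wild type mice at 2 weeks, 27.5, 33.4 and 27.9 FPKM at 10 weeks, and 16.7, 66.9, 24.3 and 15.7 FPKM in *Socs3* cKO at 2 weeks. Its log2(FC) was -3.01 with age in wild type mice (adjusted p = 8.7e-05) and -3.21 at 2 weeks (adjusted p = 0.000968). *Rian* fell from 81.6 ± 4.03 to 6.14 ± 1.77 FPKM in wild type mice (log2(FC) -3.75, adjusted p = 9.53e-08) and from 30.3 ± 6.91 to 14.8 ± 2.95 FPKM in *Socs3* cKO (log2(FC) -1.02, adjusted p = 0.0074, and -0.90 with the length and GC trend removed, below the limit on size). *Dio3*, which encodes the deiodinase that inactivates thyroid hormone, had 4.23 to 5.35 FPKM in wild type mice at 2 weeks and at most 0.510 FPKM in any mouse of the other groups, with a log2(FC) of -4.19 with age in wild type mice (adjusted p = 7.57e-06) and -5.03 in *Socs3* cKO at 2 weeks (adjusted p = 6.23e-06). *Dio3* passed the filter only through wild type mice at 2 weeks, which both tests use, so these p are not separate support. Its mean in *Socs3* cKO at 2 weeks (0.045 FPKM) lay below the added 0.1.

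*Slc38a4*, an amino acid transporter read from the paternal copy, fell with age in both genotypes. It had 11.8 ± 1.17 FPKM in wild type mice and 12.1 ± 2.57 FPKM in *Socs3* cKO at 2 weeks, and 0.608 ± 0.182 and 1.64 ± 0.451 FPKM at 10 weeks. The log2(FC) with age was -4.10 (adjusted p = 7.86e-08) and -2.81 (adjusted p = 3.67e-06), and the interaction of 1.29 was also called (adjusted p = 0.00706), though not under either scaling (0.85 and 0.62) or with the length and GC trend removed (0.80). *Zim1*, which lies beside *Peg3*, was called lower with age in both genotypes as well (-2.78 and -1.88, adjusted p = 0.00011 and 0.00525). It reached 1 FPKM only in mice at 2 weeks and so was tested only through that age, so these p are not separate support. The mean of *Zim1* in wild type mice at 10 weeks (0.084 FPKM) lay below the added 0.1. *Magel2*, a relative of *Ndn* in the same cluster, and *Snrpn* reached at most 0.474 and 0.408 FPKM in any mouse and were not tested.

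**Figure D5:**
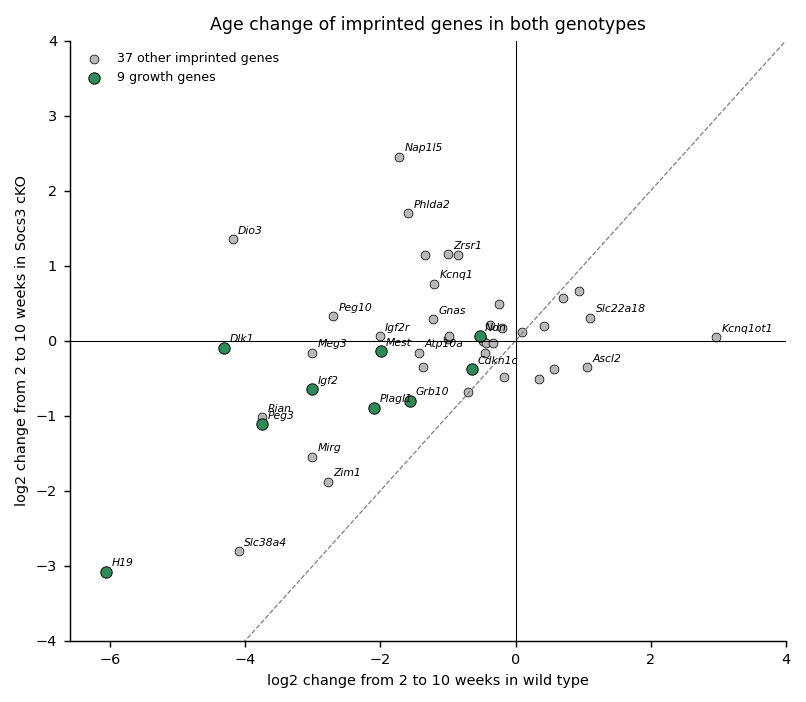
The log2(FC) from 2 to 10 weeks in wild type mice (horizontal) and in *Socs3* cKO (vertical) for the 9 growth genes (green) and the 37 other imprinted genes tested (grey). Names are given for the growth genes and for genes called in wild type mice, and the dashed line marks equal changes. Most named genes lie left of 0 and above the dashed line, as do *Dlk1* at -4.32 and -0.10 and *Igf2* at -3.01 and -0.65, while *H19* at -6.06 and -3.08 is low on both axes.

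Of the IGF axis (ligands, receptors, binding proteins, substrates and mRNA-binding proteins, excluding *Igf2*), 7 of 20 tested genes were called lower with age in wild type mice and none higher, beside 19.4% and 6.18% of all genes. Their median was -0.72, beside -0.44 over all genes. The IGF axis counts were 5 lower and none higher with quantile normalization, and 4 and none with the length and GC trend removed. *Igf2r*, the maternally expressed receptor that takes IGF2 up for breakdown, fell from 14.7 ± 0.93 to 3.71 ± 1.43 FPKM (log2(FC) -2.01, adjusted p = 0.000227, and -0.85 with the length and GC trend removed, which ended the call), and in *Socs3* cKO it had 8.75 ± 3.42 and 8.65 ± 1.79 FPKM. *Igf1r*, the receptor that carries the growth signal of both ligands, had a log2(FC) of -1.07 (adjusted p = 0.00568), which was not called under either scaling (-0.69 and -0.40) and was 0.02 with the length and GC trend removed. *Igf1* itself had 0.20 (adjusted p = 0.472). *Irs2*, an adaptor of the insulin and IGF1 receptors, fell with a log2(FC) of -3.80 (adjusted p = 0.00117). Its median in wild type mice at 10 weeks was 0.081 FPKM, below the added 0.1, so the size depends on that value.

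The RNA-binding proteins named for *Igf2* mRNA were among the genes that fell. *Igf2bp3* had 5.60 ± 0.46 and 0.306 ± 0.136 FPKM in wild type mice at 2 and 10 weeks (log2(FC) -3.86, adjusted p = 6.27e-07), and 1.54 ± 0.56 and 0.159 ± 0.057 FPKM in *Socs3* cKO (log2(FC) -2.62, adjusted p = 4.65e-05). It reached 1 FPKM only in mice at 2 weeks, so these p are not separate support, and its levels at 10 weeks lay near the added 0.1. *Igf2bp2* fell in wild type mice from 4.87 ± 0.21 to 1.16 ± 0.23 FPKM (log2(FC) -2.0, adjusted p = 0.000197), and *Igf2bp1* reached at most 0.388 FPKM in any mouse and was not tested. In *Socs3* cKO the IGF axis had 1 gene of 20 called lower with age and 3 higher, beside 1.53% and 2.01% of all genes. The 3 were *Igfbp4* (1.83), *Stc1* (1.93) and *Igfals* (1.5), which encode a binding protein, an inhibitor of the protease that frees IGFs and a serum carrier of IGFs. At 2 weeks 3 of 20 were called lower in *Socs3* cKO, beside 7.19% of all genes, led by *Igfbp4* at -2.22 (adjusted p = 0.00262). At 10 weeks 5 of 18 were called higher, led by *Irs2* at 4.16 (adjusted p = 0.00183), beside 12.5% of all genes. *Irs2* had 0.048 to 1.10 FPKM in wild type mice at 10 weeks and 3.13 to 7.37 FPKM in *Socs3* cKO. It passed the filter of this fit through *Socs3* cKO, so its p is not separate support. The 5 became 2 under median-of-ratios scaling and 3 under quantile normalization, and the latter made the 3 at 2 weeks 5.

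Regulators of fetal growth that are not imprinted were listed too. Of 9 tested, 6 were called lower with age in wild type mice and 6 lower in *Socs3* cKO at 2 weeks, beside 19.4% and 7.19% of all genes. The 6 with age became 5 with the length and GC trend removed. The 6 at 2 weeks became 5 with that trend removed and 5 with quantile normalization. *Igf2bp2* and *Igf2bp3* are also in the IGF axis list. *Mycn* and *Sox11* reached 1 FPKM only in wild type mice at 2 weeks, so they were tested only through that group. *Sox4*, a transcription factor of progenitor cells, had 20.9 ± 2.01 FPKM in wild type mice at 2 weeks and 1.71 ± 0.97, 2.48 ± 1.36 and 2.08 ± 0.53 FPKM in wild type mice at 10 weeks and *Socs3* cKO at 2 and 10 weeks. *Mycn*, a growth-promoting transcription factor of the embryo, had 3.62 ± 0.51, 0.615 ± 0.170, 0.629 ± 0.242 and 0.390 ± 0.209 FPKM in that order. Of 23 cell cycle genes tested, 4 were called lower and 1 higher with age in wild type mice, beside the 19.4% and 6.18% of all genes. None was called with age in *Socs3* cKO, beside 1.53% lower and 2.01% higher of all genes. The 4 lower in wild type mice became 0 under both scalings and 1 with the length and GC trend removed.

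The relatives of single members were examined too. Of 5 other CDK inhibitors tested beside *Cdkn1c*, *Cdkn1a* alone was called with age in wild type mice (log2(FC) -1.25, adjusted p = 0.00187), and it was higher in *Socs3* cKO at 10 weeks (1.43, adjusted p = 0.000445). Its age change reached -0.86 under median-of-ratios scaling and -0.87 with the length and GC trend removed, below the limit on size. *Cdkn1b* had -0.56 (adjusted p = 0.0684) with age in wild type mice. Both relatives of *Plagl1* fell with age in wild type mice (*Plagl2* -1.92 and *Plag1* -1.26, adjusted p = 0.000384 and 0.00102). *Plag1* was not called under either scaling (-0.96 and -0.33), and neither gene was called with the length and GC trend removed (-0.92 and -0.71). *Grb7*, 1 of the 3 adaptors listed beside *Grb10*, was lower with age in wild type mice (-1.55, adjusted p = 0.00147) and in *Socs3* cKO at 2 weeks (-1.41, adjusted p = 0.00431), and neither call held with the length and GC trend removed (-0.83 and -0.53). Of the 9 Notch receptors and ligands listed beside *Dlk1*, 5 were called lower with age in wild type mice, beside 19.4% of all genes, and none in *Socs3* cKO, beside 1.53%. The 5 became 2 under either scaling and 1 with the length and GC trend removed. *Notch1* had -1.54 (adjusted p = 0.0281) in wild type mice, and *Dlk2*, the paralog of *Dlk1*, had 0.05 (adjusted p = 0.921).

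The genes whose profile over the 15 mice was nearest to each member were found by the root mean square difference of log2(FPKM + 0.1), each gene centred on its own mean, among the 13937 genes tested. *Dlk1* was nearest to *Hoxc13* (0.48), a hair follicle transcription factor that is in the marker list above, and to *Fads3* (0.50). *Igf2* was nearest to *Pxdn* (0.38) and *Tspan11* (0.40), and *H19* to *Igf2bp3* (1.05) and *Myh8* (1.09), a perinatal myosin of skeletal muscle. *Mest* was nearest to *Ddah1* (0.23) and *Cald1* (0.25), and *Peg3* to *Adamts12* (0.44) and *Fam48a* (0.55).

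*Plagl1* had *Grb10* as the nearest gene (0.26), the only case in which a member was nearest to another, followed by *Pcsk5* (0.28), which was also second for *Grb10* (0.25) after *Klhl22* (0.23). *Cdkn1c* was nearest to *Dnajb5* (0.18) and *Slc9a3r2* (0.24), and *Ndn* to *Rcn3* (0.16) and *Fam109b* (0.17). These distances are a description over 15 mice in 4 groups.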

How the data were processed

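Ear RNA of 15 mice was sequenced as single reads of 50 bases from libraries of a kit that does not mark the strand. The authors aligned the reads to mm9 with TopHat2 (version 2.1.0 in the submitters' processing notes, which also name Cufflinks) and deposited the level of each gene as FPKM, which corrects for gene length and mapped reads. No depth is given, and the estimate of 11200000 to 16200000 mapped reads yields no counting error for a gene. The count test of the study was not repeated.

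The labels supplied the groups and the replicate numbers. The study's methods state more wild type mice, of which those without files were not analysed here. limma (version 3.58.1 in R 4.3.3, prior variance following a trend) was fitted to log2(FPKM + 0.1) of the genes that reached 1 FPKM in 3 or more mice of the fit. Age changes and the interaction used all 4 groups together, and genotype differences used their own 2 groups. All p were 2-sided, and limma's were adjusted by Benjamini-Hochberg over every gene tested. Calls needed an adjusted p below 0.01 and a log2(FC) of at least 1 in size. Ratios were compared with exact permutation tests in Python 3.11.15 (scipy 1.17.1, numpy 2.4.6, pandas 2.3.3, matplotlib 3.10.9). The limma step was tested on simulated data that gave every group the gene means and spreads of wild type mice at 2 weeks. Spreads that differ between groups were therefore not examined.

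The 9 genes and all gene lists were chosen with earlier results of these data known. From each list the text names up to 2 genes with the largest rise and 2 with the largest fall among those called, fixed relatives of the 9 genes, and the 2 genes nearest to each. Other genes named from a list were chosen after their values were seen. As alternatives, the pseudocount was set to 1 or 0.01, the filter was dropped or made stricter, libraries were rescaled by median-of-ratios or quantile normalization, the replicate number entered as a block, the other set of groups was fitted, the prior variance was held constant, and each mouse was left out. The removal of each library's trend with length and GC content was chosen after seeing the data. Positions and exons are those of GENCODE for mm9. Promoter and microRNA sequences are from RefSeq (GRCm38.p6) and were placed on mm9 by exact match.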

Additional observations from a re-analysis of the deposited data

Results flagged for a closer look

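The change from 2 to 10 weeks differed between the genotypes, by the interaction term of limma, for 4 of the 9 genes. On the log2 scale the change in *Socs3* cKO minus that in the wild type was 4.22 for *Dlk1*, 2.36 for *Igf2*, 1.85 for *Mest* and 1.2 for *Plagl1*. The part of the fibroblast and hair follicle markers, whose sums were highest in the wild type at 2 weeks, in these differences was not tested.

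*Peg3* in *Socs3* cKO replicate 4 at 10 weeks lay far from the other 3 mice of its group. The mouse had 2.40 FPKM, beside 5.64, 4.97 and 5.68 FPKM, and its gap to the nearest mouse was 0.843 of the whole range on the log2 scale, which is beyond the limit of Dixon's test for 4 samples. In all 27 groups of 4 mice were examined in this way, and chance alone flags about 1 in 20.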

How the results depend on the processing

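Of 1024 recomputed values, 936 were classed as the same. For a single gene or ratio this meant the same direction and side of the limits. For a count of genes called it meant a change of at most 1.5 times, so some of these counts did change. In the wild type, 7 genes were called with age under every alternative except the removal of the length and GC trend, which left 6. In *Socs3* cKO the 1 gene called became 0 in a fit on its own groups, 3 without the length and GC trend, and 0 to 2 when single mice were left out. The 4 genes called for the interaction became 2 without that trend and 3 to 6 without single mice. At 2 weeks the 5 genes called became 3 without that trend and 3 to 6 without single mice, and at 10 weeks the 1 gene called became 0 to 1. Leaving out a mouse keeps the spread of the remaining 14 or fewer mice, and the cause of these shifts was not tested. Counts over all genes also moved by over 1.5 times: with age, 3559 genes called in the wild type became 2205 to 3826 without single mice, and 493 in *Socs3* cKO became 146 on its own groups and 300 to 700 without single mice. The interaction count of 3417 became 1959 without wild type replicate 1 at 10 weeks. At 2 weeks 1951 became 751 with the replicate block, 3300 in 1 fit of all groups and 859 to 3348 without single mice, and at 10 weeks 1957 became 745 to 2665 without single mice and 1277 without the length and GC trend.

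None of the values that turned in direction belonged to a call. For *Ndn* with age in *Socs3* cKO the value was -0.02 with median-of-ratios scaling, -0.07 with quantile normalization, -0.02 without the length and GC trend and -0.15 to 0.17 without single mice, and for *Dlk1* it was -0.64 to 0.35. In the interaction *Cdkn1c* had -0.21 with median-of-ratios scaling, -0.65 without the trend and -0.13 to 0.46 without single mice, and *Grb10* had -0.38 without the trend. At 2 weeks *Cdkn1c* had 0.22 without the trend and *Peg3* -0.23 to 0.38 without single mice. At 10 weeks *Dlk1* had -0.03 with quantile normalization and -0.14 without the trend, *Mest* -0.03 without it, *Plagl1* -0.13 with quantile normalization and -0.50 without the trend, and *Grb10* -0.12 to 0.12 without single mice. The genotype difference at 10 weeks in the log2 ratio of *Igf2* to *H19* was -0.26 to 0.49, and that of *Igf2* to *Igf1* -0.28 to 0.04. No adjusted p of a ratio passed 0.05 under any alternative, and with 3 mice in a group none could.

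The labels give the groups the same replicate numbers, but these did not pair the mice: deviations from the group means of same-numbered mice correlated at 0.029 to 0.086 in the age comparison of the wild type, -0.11 to 0.241 in that of *Socs3* cKO, -0.057 to 0.057 at 2 weeks and -0.203 to 0.036 at 10 weeks. With the replicate number as a block the genes called with age were 7 in wild type mice and 1 in *Socs3* cKO, 5 in the interaction, 3 at 2 weeks and 1 at 10 weeks.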

Other observations

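Other imprinted genes had patterns that none of the 9 growth genes showed. *Kcnq1ot1*, the noncoding RNA of the cluster that holds *Cdkn1c*, had 1.33 to 2.44 FPKM in the wild type at 10 weeks and 0.098 to 0.209 FPKM in every other mouse. Its log2(FC) was 2.97 with age in the wild type (limma, adjusted p = 2.49e-06) and -2.91 in *Socs3* cKO at 10 weeks (adjusted p = 0.000444). *Ascl2*, a transcription factor of the same cluster, had 5.56 to 5.58 FPKM in the wild type at 10 weeks and 1.32 to 3.13 FPKM in the other groups (log2(FC) 1.06 with age, adjusted p = 0.00612). The libraries in which both were highest also stood apart in genes listed at 0 (1414 to 3176, beside 4044 to 4423 in the others). *Nap1l5*, a nucleosome assembly protein, moved in opposite directions with age, from 0.406 ± 0.131 to 0.050 ± 0.019 FPKM in the wild type (log2(FC) -1.72, adjusted p = 0.000434) and from 0.168 ± 0.052 to 1.38 ± 0.34 FPKM in *Socs3* cKO (log2(FC) 2.45, adjusted p = 6.96e-05). *Phlda2*, a maternally expressed gene that restrains placental growth, did likewise, from 2.48 ± 0.72 to 0.750 ± 0.200 FPKM in the wild type (log2(FC) -1.59, adjusted p = 0.00045) and from 0.654 ± 0.177 to 2.33 ± 0.49 FPKM in *Socs3* cKO (log2(FC) 1.70, adjusted p = 0.000758). With quantile normalization the fall in the wild type was not called for *Nap1l5* (-0.78) or *Phlda2* (-0.85), nor was the rise of *Phlda2* in *Socs3* cKO (1.49, adjusted p = 0.0119). *Kcnq1ot1* reached 1 FPKM only in the wild type at 10 weeks and *Nap1l5* only in *Socs3* cKO at 10 weeks. Each was tested only through that group, so its p in comparisons with that group is not separate support. The fall of *Nap1l5* in the wild type lay below 1 FPKM at both ages, near the added 0.1.

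Among the cell cycle genes, *Tyms*, which encodes thymidylate synthase, was the gene called higher with age in the wild type. It had 32.9 to 50.8 FPKM there at 10 weeks and 5.81 to 11.03 FPKM in the other groups (log2(FC) 2.64, adjusted p = 2.75e-07). The wild type libraries at 10 weeks also stood apart in the number of genes listed at 0.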
